A study of Caenorhabditis elegans with 2 samples.

Results

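The tRNA genes for serine, leucine and selenocysteine encode the nuclear tRNAs with a long variable arm, and 79 of the 612 nuclear tRNA genes of the C. elegans RefSeq annotation (WBcel235, build ce11) belong to them. They were chosen by annotation alone, as all nuclear genes of biotype tRNA with the product tRNA-Ser (39 genes), tRNA-Leu (39 genes) or tRNA-Sec (1 gene). The other 533 nuclear tRNA genes served for comparison. The measurements were chromatin immunoprecipitation with sequencing (ChIP-seq) of the protein of B0261.1, annotated as vep-1 with a Myb-like domain, a fold common in DNA-binding proteins. Worms of strain OP662, genotype unc-119(tm4063) III; wgIs662, carried a transgene for B0261.1 with a GFP-FLAG tag at its C terminus. The description names an antibody against GFP, and the antibody field of the labels names B0261.1. Whole young adults, males and females pooled, were taken 64 hours after synchronisation as starved L1 larvae. They made up 1 group of 2 biological replicates, numbered 1 and 3, so no conditions were compared. The labels name no promoter and no untagged strain for the transgene, and control libraries were not analysed here.

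RNA polymerase III makes tRNAs from promoters that lie inside the gene. In yeast, where this has been worked out, the factor TFIIIC binds an A box and a B box within the transcribed sequence and places TFIIIB just upstream of the start, and TFIIIB then recruits the polymerase; a run of T residues after the gene ends transcription. The A box falls in the D arm of the tRNA and the B box in the T arm. The variable arm lies between the anticodon arm and the T arm, so a long variable arm, like an intron next to the anticodon, moves the B box and the gene end away from the start while the A box stays near it. Serine and leucine, with arginine, have the largest sets of codons, and tRNA-Sec is charged with serine that is then converted to selenocysteine.

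The members were longer than the other tRNA genes, with a median annotated length of 82 bp (77 to 122 bp) against 72 bp (64 to 115 bp). Among the tRNA-Ser genes 37 measured 82 bp, 1 measured 77 bp and 1 measured 86 bp. Among the tRNA-Leu genes 22 measured 82 bp, 1 measured 83 bp, 8 measured 84 bp and 1 measured 100 bp. The remaining 7 tRNA-Leu genes, of 119 to 122 bp, were those annotated with an intron, of 35 to 38 bp, and all 7 had the anticodon CAA. The tRNA-Sec gene measured 86 bp. The B box, searched as GTTCNANNC on the strand of the gene, was found in 78 members (98.7%) and in 509 of the other tRNA genes (95.5%). It began at base 62 or later in the members, at base 52 in the median of the other genes, and in all 78 members it began 21 bases before the gene's end, counting its first base and the last base of the gene.

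Sequences follow, 1 gene for each anticodon, so that the distance between the summit, the first base and the B box can be read from the letters. The first are the tRNA-Leu gene with the highest signal of each anticodon, C04E7.t1 for AAG (chrX:353255-353396, minus strand), C04A11.t1 for CAA (chrX:13665495-13665673, plus strand), ZK678.t1 for CAG (chrX:15741990-15742133, plus strand), C40H5.t1 for TAA (chrX:11757831-11757974, minus strand) and W02H3.t1 for TAG (chrX:11095613-11095754, plus strand). Each run, from RefSeq build WBcel235, holds 60 upstream bases followed by the whole gene, 5′ to 3′ on the strand of the gene. Capitals mark the base under the summit of the peak of the authors' reproducible list, which lies upstream of the gene in each, and the B box.
C04E7.t1: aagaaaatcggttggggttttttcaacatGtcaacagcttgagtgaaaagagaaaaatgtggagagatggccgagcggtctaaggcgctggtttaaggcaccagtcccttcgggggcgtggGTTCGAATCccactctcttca
C04A11.t1: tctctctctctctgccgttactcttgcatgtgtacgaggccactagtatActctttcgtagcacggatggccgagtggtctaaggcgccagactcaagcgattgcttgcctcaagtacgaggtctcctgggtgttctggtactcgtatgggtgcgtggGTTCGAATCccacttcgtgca
ZK678.t1: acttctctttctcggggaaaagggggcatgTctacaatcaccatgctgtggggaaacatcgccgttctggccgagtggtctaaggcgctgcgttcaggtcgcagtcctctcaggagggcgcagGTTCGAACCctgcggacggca
C40H5.t1: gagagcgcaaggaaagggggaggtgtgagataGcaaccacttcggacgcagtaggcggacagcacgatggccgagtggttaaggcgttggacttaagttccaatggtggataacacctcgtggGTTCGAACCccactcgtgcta
W02H3.t1: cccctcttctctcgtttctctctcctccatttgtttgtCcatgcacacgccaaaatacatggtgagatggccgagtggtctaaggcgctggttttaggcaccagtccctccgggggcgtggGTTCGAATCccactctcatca

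The next runs give the same for tRNA-Ser and tRNA-Sec. C53C7.t1 carried AGA (chrX:13046518-13046659, plus strand), Y7A5A.t4 CGA (chrX:15773331-15773472, minus strand), C29F7.t2 GCT (chrX:13442583-13442724, plus strand), F28F8.t4 TGA (chrV:15547875-15548016, minus strand) and K11H12.t1, the tRNA-Sec gene, TCA (chrIV:658121-658266, plus strand). For CGA and GCT a gene other than the strongest of its anticodon is shown. Capitals again mark the B box and the summit base, except that the summit of C53C7.t1 lay 73 bp upstream of the gene, beyond the bases shown.
C53C7.t1: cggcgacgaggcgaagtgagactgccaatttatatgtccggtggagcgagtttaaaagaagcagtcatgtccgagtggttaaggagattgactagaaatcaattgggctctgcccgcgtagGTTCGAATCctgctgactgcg
Y7A5A.t4: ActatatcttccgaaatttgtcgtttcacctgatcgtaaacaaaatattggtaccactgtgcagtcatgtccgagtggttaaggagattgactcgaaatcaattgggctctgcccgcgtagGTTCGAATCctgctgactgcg
C29F7.t2: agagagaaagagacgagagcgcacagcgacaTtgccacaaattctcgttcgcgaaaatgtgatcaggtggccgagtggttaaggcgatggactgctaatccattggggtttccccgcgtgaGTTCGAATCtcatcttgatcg
F28F8.t4: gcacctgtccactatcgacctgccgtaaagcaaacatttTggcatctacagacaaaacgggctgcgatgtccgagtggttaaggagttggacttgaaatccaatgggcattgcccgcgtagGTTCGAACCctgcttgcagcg
K11H12.t1: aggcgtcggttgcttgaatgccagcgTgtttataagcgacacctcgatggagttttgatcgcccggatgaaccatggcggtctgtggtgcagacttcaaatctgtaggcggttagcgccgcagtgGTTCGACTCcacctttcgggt

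The deposited lists for ce11 held 1550 reproducible peaks (kept by the authors at a limit on the irreproducible discovery rate, IDR), 30000 regions called on both replicates pooled, 23931 regions of replicate 1 and 30000 of replicate 3. Each region has a summit and the authors' signal value, whose scale is not stated, so signals were compared only within a list. The lowest signal of an IDR peak was 179, the median 504 and the highest 15652. No list gives read depth, and genes are not replicates, so distributions over genes are descriptions with no test. From each replicate the 1550 regions of highest signal were used, unless the whole list is named, and values of both replicates are given as mean ± SD (n = 2). The labels number the replicates as biological without saying that they were separate cultures, so this spread may be partly technical. No 2 summits of a list lay closer than 199 bp, so 2 genes whose usual summit positions fall closer together than that could not each have one there.

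An IDR summit lay within 100 bp of 71 of the 79 members (89.9%), against 453 of the 533 other tRNA genes (85.0%); over all nuclear tRNA genes the share was 85.6%. By isotype, 35 of 39 tRNA-Ser genes, 35 of 39 tRNA-Leu genes and the tRNA-Sec gene had one. The members' share lay near the share of all tRNA genes and is no result particular to them. The pooled list had a summit at 73 members, with 89.1% of all tRNA genes. The list of replicate 1 had one at 74 members, with 84.6% of all tRNA genes, and that of replicate 3 at 73 members, with 85.6%, which gave 73.5 ± 0.707 members. With the whole lists the counts were 75 members in replicate 1, where 88.2% of all tRNA genes had a summit, and 74 members in replicate 3, where the share was 90.0%. A single summit lay within 100 bp at 66 of the 71 members.

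The summits sat upstream of the members, at the same distance from the first base as at the shorter tRNA genes. The median offset of the nearest IDR summit from the first base was -25 bp (quartiles -30 and -19) in the members and -25 bp (quartiles -30 and -19) in the other tRNA genes, where a negative offset is upstream. Measured from the last base, the median was -108 bp (quartiles -115.5 and -102.5) in the members and -97 bp (quartiles -102 and -91) in the other tRNA genes. From the start of the B box it was -88 bp in the members and -77 bp in the other tRNA genes. The longer genes thus differed by 11 bp in the distance from the summit to the gene end and to the B box, and by 0 bp in the distance to the first base.

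The 2 replicates gave these offsets separately. In replicate 1 the median start offset was -26 bp in the members and -26 bp in the other tRNA genes, and in replicate 3 it was -24 bp in the members and -25 bp in the other tRNA genes. The difference of the medians, members minus the other tRNA genes, was 0.5 ± 0.707 bp for the start offset and -10.5 ± 0.707 bp for the end offset (SD, n = 2). The difference at the gene end exceeded the spread between the replicates and that at the first base did not. The offsets from the gene end and from the B box use the same summit and the annotated gene, so they are no separate measurements. With like start offsets, the difference at the gene end follows from the annotated lengths (medians of 82 and 72 bp). No test over the 2 replicates was run. The pooled list gave -24 bp and -107 bp in the members, against -25 bp and -96 bp in the other tRNA genes.

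**Figure D1:**
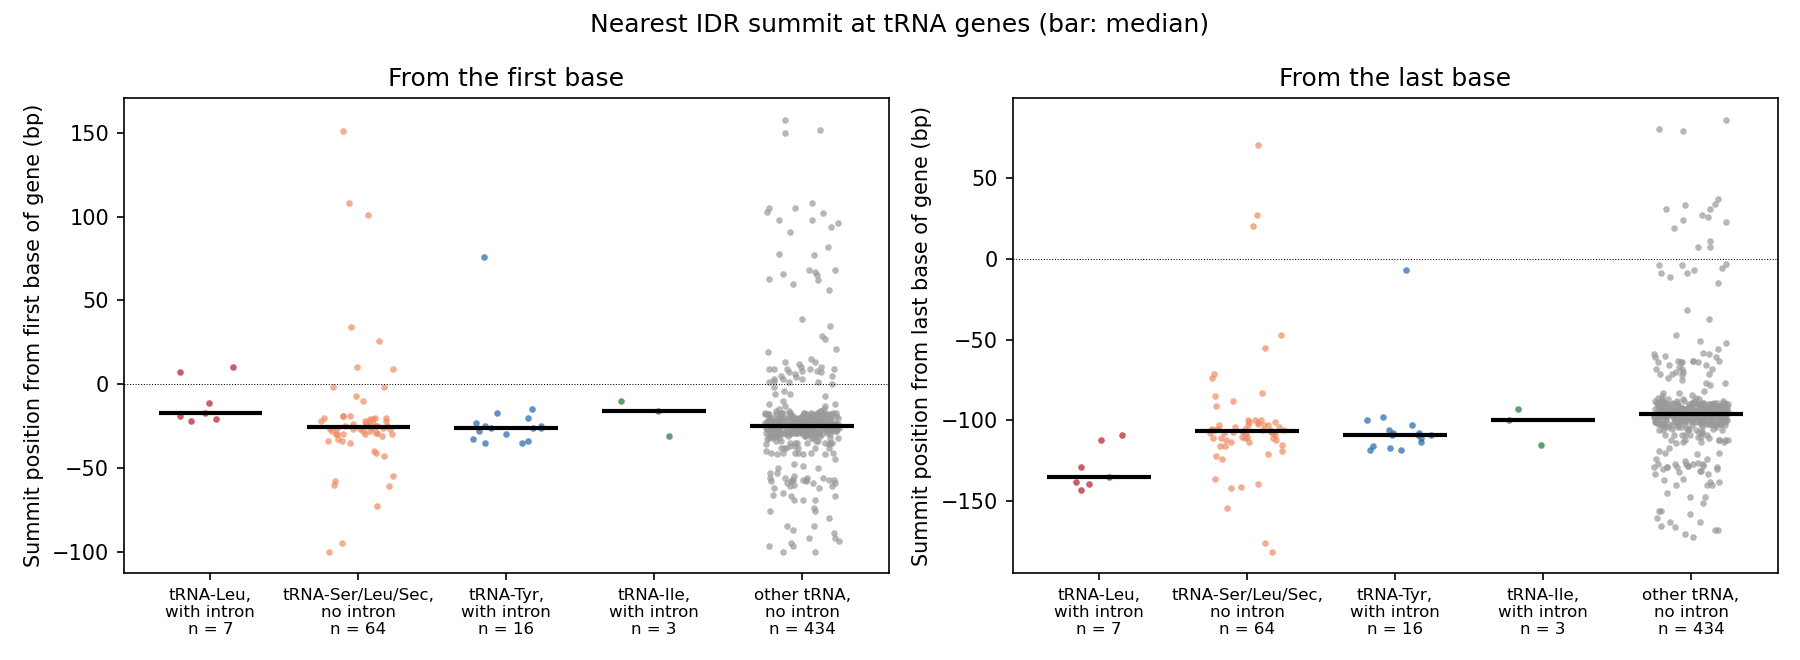
Position of the nearest IDR summit, in bp, from the first base (left panel) and from the last base (right panel) of each tRNA gene, with 1 point a gene and a bar at the median. From the first base the medians are -17 bp in the 7 tRNA-Leu genes with an intron, -25.5 bp in the 64 members without one, -26 bp in the 16 tRNA-Tyr genes, -16 bp in the 3 tRNA-Ile genes with an intron and -25 bp in the 434 other genes without one; from the last base they are -135, -106.5, -109, -100 and -96 bp.

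Summits of 62 of the 71 members were upstream of the first base (87.3%), as were those of 394 of 453 other tRNA genes (87.0%). Between 40 and 10 bp upstream lay those of 50 members (70.4%) and of 328 other tRNA genes (72.4%). Inside the gene lay the nearest summit of 6 members and of 43 other tRNA genes, and past the gene end that of 3 members and of 16 other tRNA genes. The tRNA-Ser and tRNA-Leu genes had medians of -26 bp and -22 bp from the first base, and of -107 bp and -111 bp from the last base. Across the 71 members the Pearson correlation of gene length was 0.08 with the start offset and -0.22 with the end offset, and across all 524 tRNA genes with a summit 0.06 and -0.14. These are correlations across genes that share the same libraries. The end offset contains the gene length by definition, so its negative correlation with length is no separate result.

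The 7 tRNA-Leu genes with an intron (anticodon CAA) are the longest members, and all 7 had an IDR summit. Their median offset was -17 bp from the first base and -135 bp from the last. In replicate 1 the medians were -21 and -139 bp, and in replicate 3 -18 and -136 bp. The mean over the replicates was -19.5 ± 2.12 bp from the first base and -137.5 ± 2.12 bp from the last in these genes, against -26.25 ± 1.06 bp and -108 ± 1.41 bp in the members without an intron. In both replicates the genes with an intron thus had medians farther from the gene end and a few bp nearer to the first base. Each difference exceeded the spread between the replicates, which is no spread over genes. The IDR start offsets of the 7 genes ran from -22 to +10 bp, and the distance to the gene end includes the intron. The 19 tRNA-Tyr genes were all annotated with an intron, and 16 of them had an IDR summit. Their medians were -26 bp from the first base and -109 bp from the last. The 3 tRNA-Ile genes with an intron all had an IDR summit, with medians of -16 bp from the first base and -100 bp from the last. In replicate 1 that start offset was -17 bp, and replicate 3 gave -16 bp. The median start offset of the tRNA-Tyr genes was thus close to that of all tRNA genes. In the tRNA-Ile genes it was close to that of the tRNA-Leu genes with an intron. The 3 tRNA-Ile genes ran from -31 to -10 bp in the IDR list, a range that takes in both values.

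Gene by gene, C04A11.t1 had its summit 11 bp upstream of the first base, with signal 6517 in the IDR list, 1139 in replicate 1 and 5491 in replicate 3, the highest of any tRNA-Leu gene. F42F12.t1 had an IDR offset of -19 bp and signals of 4219 (IDR), 776 (replicate 1) and 3507 (replicate 3). C14B9.t2 had -22 bp and 4215, 721 and 3602 in the same lists. These 3 genes and ZK822.t1 stood above the median of the members in each of these lists. ZK822.t1 had -21 bp with an IDR signal of 3326, and F02D10.t3 had -17 bp with an IDR signal of 1870. F22B7.t1 (+10 bp, IDR signal 1901) and B0285.t1 (+7 bp, IDR signal 1471) were the only genes of the 7 with the summit inside the gene. In replicate 3 the summit of B0285.t1 lay at -1 bp, against +10 bp in replicate 1, so its side of the start was not the same in both.

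**Figure D2:**
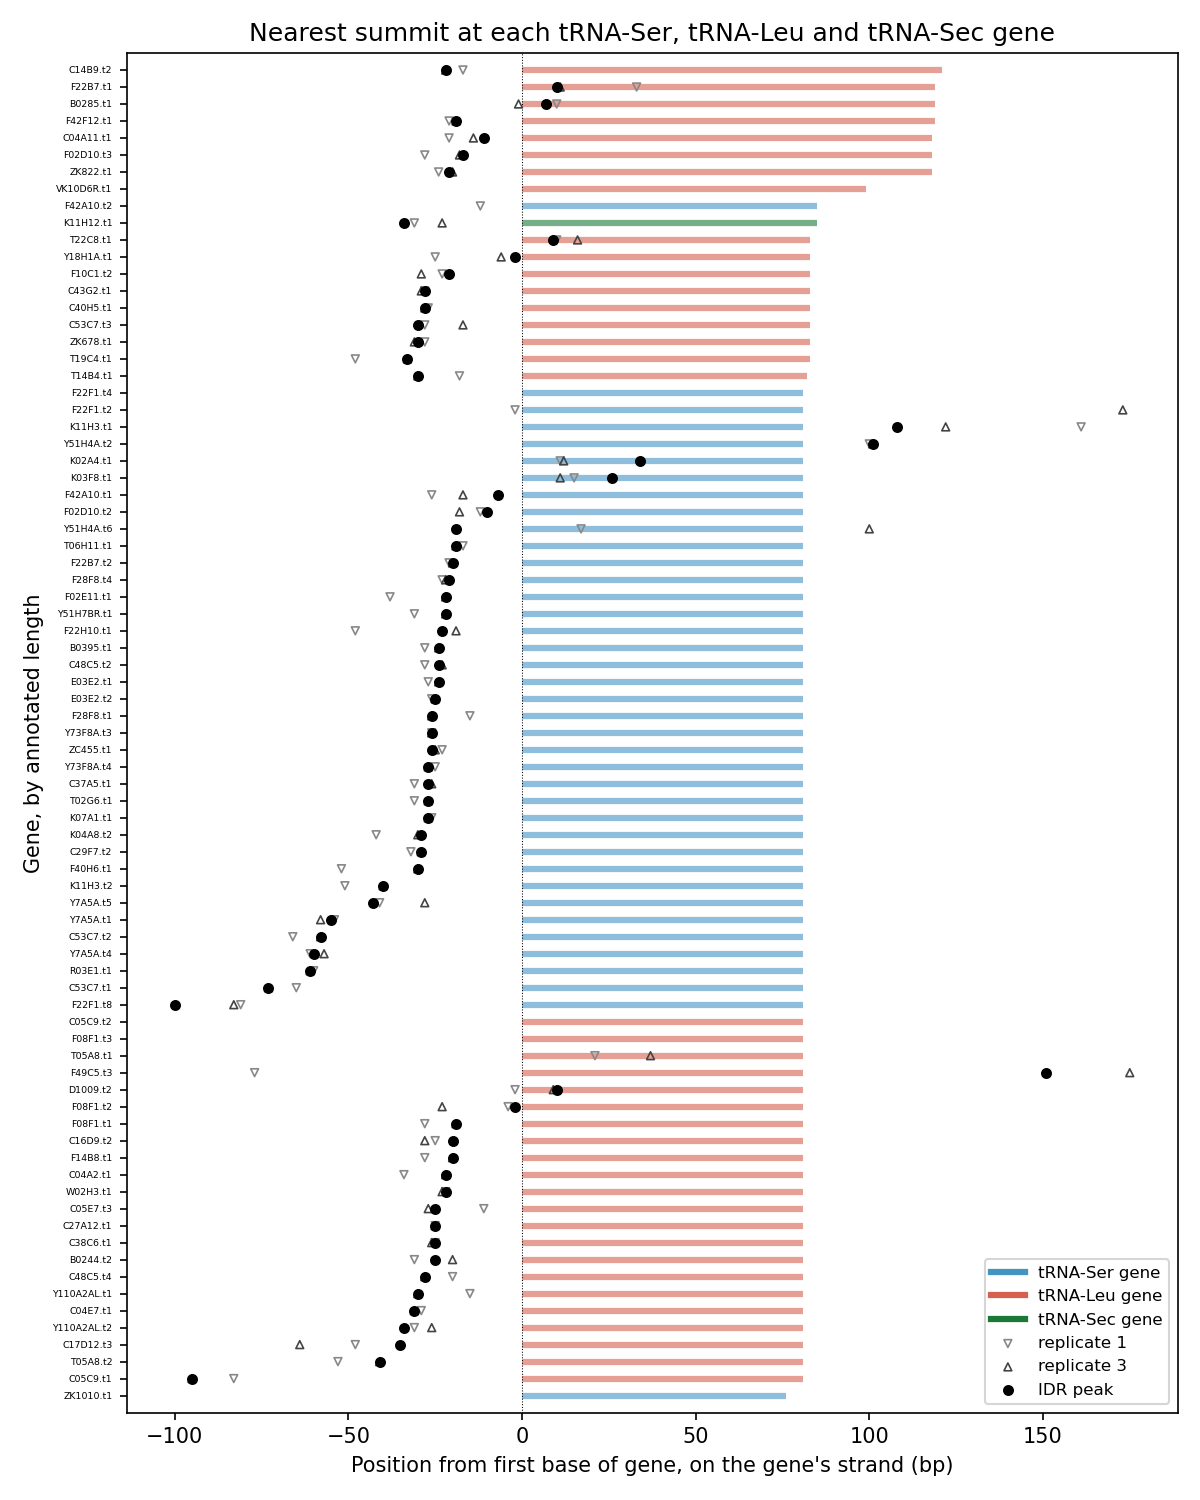
Each row is 1 of the 79 members, sorted by annotated length, drawn as a bar from its first to its last base; filled circles mark the nearest IDR summit and open triangles the nearest summit of each replicate, in bp from the first base. The summits form a column upstream of the first base that shifts little with the length of the bar; rows without a filled circle are the 8 members with no IDR summit within 100 bp.

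Signal varied widely among the members. The IDR signal of the 71 members ran from 510 to 10978 with a median of 2808, a 21.5-fold range, against 197 to 15652 with a median of 2568 in the 453 other tRNA genes. The ratio of the medians, members over other tRNA genes, was 1.09 in the IDR list and 1.092 ± 0.004 over the replicates (1.089 in replicate 1 and 1.095 in replicate 3). In replicate 1 the medians were 493 in the members and 452 in the other tRNA genes, and in replicate 3 they were 2342 in the members and 2140 in the other tRNA genes. The small excess was close to 1 (1.01) when only genes with no other tRNA gene within 250 bp were taken, an alternative added once the data had been seen. The quartiles of the members (1628 and 3802) covered nearly the same range as those of the other tRNA genes (1655 and 3712).

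The peak of highest signal at the members was shared by a pair of tRNA-Ser genes. C53C7.t1 (anticodon AGA) and C53C7.t2 (anticodon CGA) lie 131 bp apart on chromosome X, on opposite strands with their starts facing each other, and had the same summit between them, with signal 10978 in the IDR list, 1794 in replicate 1 and 9326 in replicate 3. It lay 73 bp upstream of C53C7.t1 and 58 bp upstream of C53C7.t2, and was the third highest of all IDR peaks. The signal of this peak cannot be divided between the 2 genes. F42A10.t1 (AGA, chromosome III) had 6250 in the IDR list, 1188 in replicate 1 and 5253 in replicate 3, and F02D10.t2 (GCT, chromosome X) had 5528, 1162 and 4747. R03E1.t1 (AGA, chromosome X) followed with an IDR signal of 5071 at a summit that also lay within 100 bp of another tRNA gene.

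Among the tRNA-Leu genes the highest after C04A11.t1 were ZK678.t1 with an IDR signal of 5366, C40H5.t1 with 5184, W02H3.t1 with 4763 and C04E7.t1 with 4754. All 4 have their summits between 31 and 22 bp upstream, at the capital in the sequences above. In the replicates ZK678.t1 had 976 (replicate 1) and 4491 (replicate 3), at -28 and -31 bp. C04E7.t1 had 826 (replicate 1) and 4027 (replicate 3), at -29 and -31 bp. All 5 of the highest tRNA-Leu genes lie on the X chromosome and carry 5 different anticodons.

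By anticodon, the median IDR signal of the tRNA-Ser genes was 3154 for AGA (13 of 15 genes with a summit), 3466 for CGA (5 of 6), 2490 for GCT (8 of 9) and 2727 for TGA (9 of 9). For the tRNA-Leu genes it was 2618 for AAG (16 of 19), 3326 for CAA (7 of 7), 2937 for CAG (5 of 5), 3766 for TAA (3 of 3) and 2394 for TAG (3 of 3). The medians of the 9 anticodons stood within the range of single genes of every one of them, so they form no clear order. The anticodon could not be read from T14B4.t1 and VK10D6R.t1 by the pairing rule used. T14B4.t1, an 83 bp tRNA-Leu gene, had an IDR signal of 3075 at -30 bp.

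**Figure D3:**
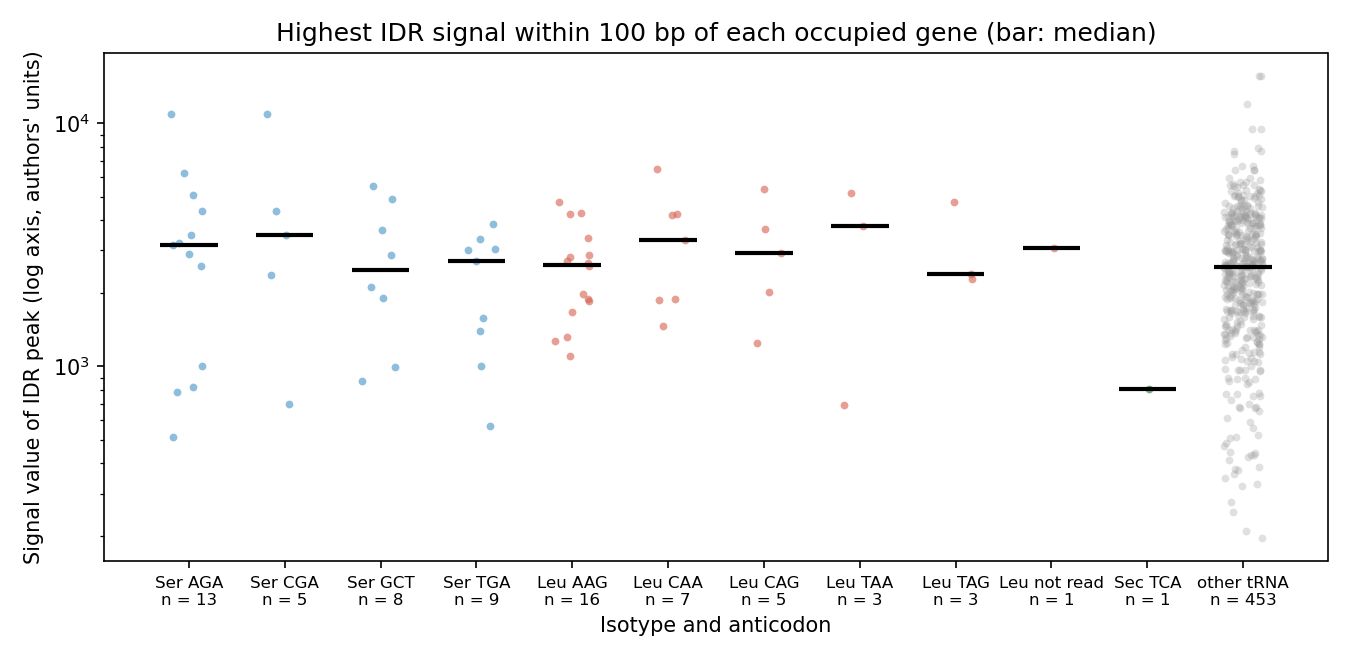
Highest signal of an IDR peak within 100 bp of each gene (log axis, authors' units), by isotype and anticodon, with the other tRNA genes at the right, 1 point a gene and a bar at the median. The single tRNA-Sec gene has 808, and single genes of most anticodons spread over several-fold.

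The tRNA-Sec gene K11H12.t1 on chromosome IV encodes the tRNA that reads UGA as selenocysteine. It had an IDR peak with its summit 34 bp upstream, with signal 808, at rank 631 of the 1550 peaks. The signal was 133 in replicate 1, with the summit at -31 bp, and 666 in replicate 3, with the summit at -23 bp, against member medians of 493 and 2342 in these lists. Its value was thus below the lower quartile of the members (1628), above the lowest member (510) and above the median of all IDR peaks (504). The B box search matched it and the A box search did not. All of its 31-base sequences (100%), in the gene and in the 100 bp on either side, occur once in the genome, which held for 3 more members, F08F1.t3, K02A4.t1 and T22C8.t1.

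Most members have identical copies, which made it possible to see how much the signal varied at 1 gene sequence. Of the 79 members, 55 had at least 1 other gene of identical sequence. The largest set, 11 tRNA-Ser genes with anticodon AGA, had 9 genes with an IDR summit and signals from 823 (Y73F8A.t4) to 10978 (C53C7.t1), a 13.3-fold range. Of the 6 genes of this set with no other tRNA gene within 250 bp, all 6 had a summit, with signals from 823 to 4348, a 5.29-fold range, and offsets from -27 to -20 bp. A set of 9 tRNA-Leu genes with anticodon AAG, which includes C04E7.t1, had 8 genes with a summit and signals from 1268 to 4754, a 3.75-fold range. A set of 7 tRNA-Ser genes with anticodon GCT had 7 with a summit and signals from 867 to 5528, a 6.37-fold range. The remaining sets of 3 or more copies had ranges of 3.86-fold in a second AAG set of 7 tRNA-Leu genes (2.61-fold without a shared summit) and 4.63-fold in 3 CGA tRNA-Ser genes (1.84-fold without a shared summit), and of 2.35-fold in 3 CAG and 2.08-fold in 3 TAG tRNA-Leu genes. Within these sets of 3 or more copies, genes of the same sequence thus differed in signal by 2.08-fold to 13.3-fold in the IDR list. Without shared summits the ranges were 1.84-fold to 7.60-fold. Identical pairs are not part of these ranges.

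The same identity limits the mapping of reads. No sequence of 31 bases occurring once in the genome was found within the gene in 56 of the 79 members and in 418 of the 533 other tRNA genes. In the 100 bp on either side the median share of such sequences was 96% in the members and 94.5% in the other tRNA genes. How the authors treated reads that match several places is not given in the sources used here, and its part in the signals was not tested. The 19 members with an IDR summit and a unique sequence in the gene had a median offset of -22 bp from the first base, -112 bp from the last base and a median signal of 3075.

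Both replicates found nearly the same members with similar summits. Of 74 members with a summit in either replicate's list, 73 had one in both, and the 2 summits lay a median of 7 bp apart. They lay within 10 bp of each other at 46 members and within 25 bp at 68. More than 50 bp separated them at 3 members. At F49C5.t3 they lay at -77 bp in replicate 1 and at +175 bp in replicate 3, and at F22F1.t2 at -2 and +173 bp, and both genes have another tRNA gene within 200 bp. At Y51H4A.t6 they lay at +17 and +100 bp, and only 39% of the flanking 31-base sequences of that gene occur once in the genome. Across the 73 members the Pearson correlation of the log2 signals was 0.978, and across 433 other tRNA genes 0.968. Signals in replicate 3 were a median of 4.82 times those in replicate 1 in the members and 4.77 times in the other tRNA genes, on a scale that is not stated.

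**Figure D4:**
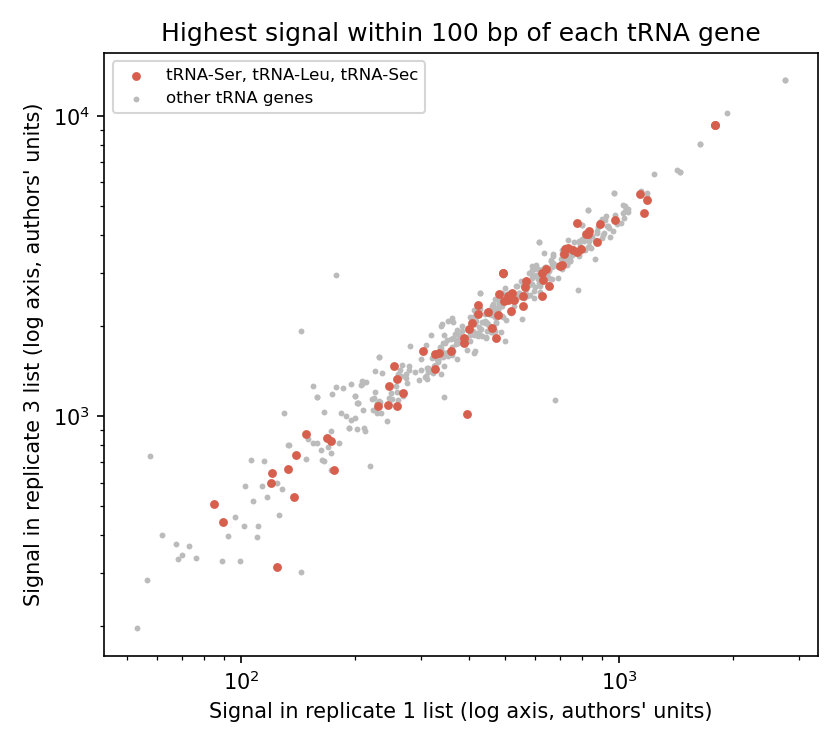
Highest signal within 100 bp of each tRNA gene in the list of replicate 1 (x axis) and of replicate 3 (y axis), both on log axes in the authors' units, with members in red and the other tRNA genes in grey. The points follow 1 line, along which the members lie between 85.0 and 1794 in replicate 1, within the range of the other tRNA genes (53.1 to 2749).

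Members with another tRNA gene close by had their summits farther from the first base. Of 12 members with another tRNA gene within 250 bp, 9 had an IDR summit, at a median of -58 bp, and 1 of these 9 lay between 40 and 10 bp upstream. Of the 67 members with no such neighbour, 62 had a summit, at a median of -24.5 bp, and 49 of the 62 lay in that window. The other tRNA genes showed the same pattern, with 84 of 112 genes with a neighbour having a summit (median -49 bp, 15 in the window) and 369 of 421 without one (median -24 bp, 313 in the window). The median IDR signal was 5071 in the members with a neighbour and 2580 in those without one, against 2592 and 2565 in the other tRNA genes. Of the 9 members with a neighbour and a summit, 6 shared that summit with another tRNA gene.

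By the summit nearest to the first base, the most upstream were those of F22F1.t8 (-100 bp, tRNA-Ser), C05C9.t1 (-95 bp, tRNA-Leu) and C53C7.t1 (-73 bp, tRNA-Ser). F22F1.t8 and C05C9.t1 each had 2 IDR summits within 100 bp. At C05C9.t1 the summit at -95 bp had signal 622, and the other, past the gene end, had the higher signal of 1851. The most downstream were those of F49C5.t3 (+151 bp, tRNA-Leu), K11H3.t1 (+108 bp, tRNA-Ser) and Y51H4A.t2 (+101 bp, tRNA-Ser), all past the gene end. The nearest other tRNA gene lay within 200 bp of F22F1.t8, 358 bp from C05C9.t1, 131 bp from C53C7.t1, 170 bp from F49C5.t3 and 334 bp from K11H3.t1. It lay 6355 bp from Y51H4A.t2, where it was Y51H4A.t6, an identical gene in a stretch with 39% unique flanking sequence. The summit of Y51H4A.t2 was at +100 bp in replicate 1 and +101 bp in replicate 3.

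**Figure D5:**
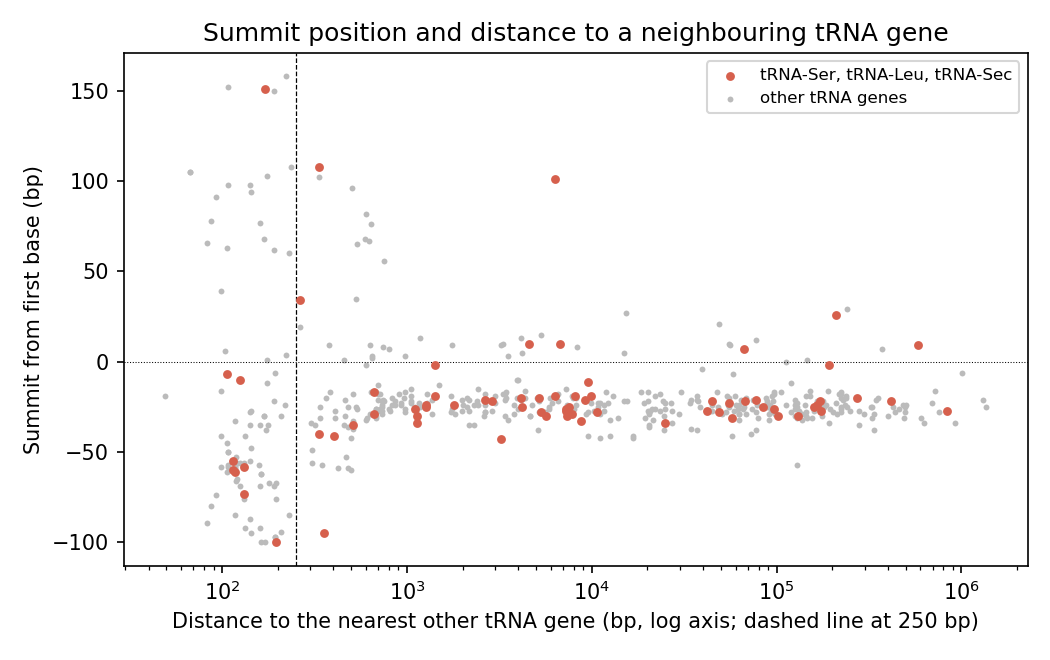
Position of the nearest IDR summit from the first base (y axis, bp) against the distance to the nearest other tRNA gene (x axis, bp, log axis) for members (red) and other tRNA genes (grey), with a dashed line at 250 bp. Right of the line most points lie in a band between -40 and -10 bp; left of it they scatter, with a median of -58 bp in the members and -49 bp in the other tRNA genes.

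No IDR summit lay within 100 bp of 8 members, 4 tRNA-Ser and 4 tRNA-Leu genes. Of these, 4 had a summit within 100 bp in at least 1 of the other lists. T05A8.t1 (Leu, AAG) had one in the pooled list at +25 bp with signal 139, in replicate 1 at +21 bp with signal 124 and in replicate 3 at +37 bp with signal 313. F42A10.t2 (Ser, CGA, 86 bp long) had one in replicate 1 at -12 bp with signal 840, and lies 106 bp from F42A10.t1, whose IDR summit was 194 bp upstream of F42A10.t2. F22F1.t2 (Ser, AGA) had one at -2 bp with signal 557 in replicate 1 and at +173 bp with signal 2325 in replicate 3, while the nearest IDR summit, with signal 2979, lay 201 bp downstream of its first base. ZK1010.t1 (Ser, GCT) had a pooled summit at +9 bp with signal 131, and in the whole lists one at +24 bp with signal 17.2 in replicate 1 and one at +9 bp with signal 131 in replicate 3.

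The remaining 4, VK10D6R.t1 (Leu, anticodon not read), F22F1.t4 (Ser, AGA), F08F1.t3 (Leu, AAG) and C05C9.t2 (Leu, AAG), had no summit within 100 bp in any of the 6 lists. C05C9.t2 is identical to C04E7.t1, one of the strongest tRNA-Leu genes, and its nearest IDR summit lay 329 bp upstream of its first base. F22F1.t4 is identical to the AGA genes above, and its nearest IDR summit lay 260 bp downstream. Identical sequence thus occurred at genes with and without a summit. Of the flanking 31-base sequences, 66.5% occur once in the genome at F22F1.t4 and 92% at C05C9.t2. The part of this in the missing summits was not tested. VK10D6R.t1 and F08F1.t3 were far from any IDR summit, at 6646 and 4902 bp. Just inside the limit of 100 bp, the summits nearest to the first base lay 100 bp (F22F1.t8) and 95 bp (C05C9.t1) from the gene. Both genes also had a second IDR summit within the limit, which at C05C9.t1 lay nearer to the gene. Just outside the limit, the nearest summits lay 120 bp (F22F1.t2) and 161 bp (T05A8.t1) from the gene.

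Of the members without an IDR summit, the one without a B box match, the one without an A box match and the longest are shown. They are ZK1010.t1 (chrIII:13009363-13009499, plus strand), F08F1.t3 (chrX:8409296-8409437, minus strand) and VK10D6R.t1 (chrV:11183666-11183825, minus strand), each with 60 upstream bases and with the B box, where found, in capitals. ZK1010.t1 was the shortest member, at 77 bp, and the only member in which the B box search found no match. F08F1.t3 differs from C04E7.t1 at 8 of 82 bases and was 1 of 4 members without a match in the A box search; the other 3, K11H12.t1, Y51H4A.t2 and Y51H4A.t6, had an IDR summit. VK10D6R.t1, at 100 bp, is longer than the other tRNA-Leu genes that are annotated without an intron. The other 5 members without an IDR summit matched both searches, as did most genes with a summit. Among these 5, F42A10.t2 has no identical copy. The only other member of its length, the tRNA-Sec gene, differs from it at 53 of 86 bases, and members of other lengths were not compared with it.
ZK1010.t1: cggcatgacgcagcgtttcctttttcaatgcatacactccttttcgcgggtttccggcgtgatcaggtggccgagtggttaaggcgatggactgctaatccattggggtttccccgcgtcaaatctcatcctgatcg
F08F1.t3: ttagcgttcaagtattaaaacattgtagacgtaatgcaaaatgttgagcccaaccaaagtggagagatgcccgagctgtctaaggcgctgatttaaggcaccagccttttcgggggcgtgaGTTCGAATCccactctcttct
VK10D6R.t1: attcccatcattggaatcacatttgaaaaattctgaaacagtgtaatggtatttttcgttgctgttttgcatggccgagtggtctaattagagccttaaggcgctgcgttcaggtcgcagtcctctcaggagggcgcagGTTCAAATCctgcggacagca

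Other features were shared by nearly all members. The A box search, run on the first 30 bases, matched 75 of 79 members (94.9%) and 519 of 533 other tRNA genes (97.4%). A run of TTTT began within 10 bases after the gene in all 79 members and in 519 other tRNA genes, at a median of 5 bases in both. The letters TATA, which read the same on both strands, occurred in the 60 upstream bases of 18 members (22.8%), of 109 other tRNA genes (20.5%) and of 29.1% of protein-coding genes. The median share of G and C in these 60 bases was 45% in the members and 41.7% in the other tRNA genes. A missing match says only that the searched letters are not in the window.

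Among 5 sequences of 6 bases taken from an earlier analysis of these peaks, 4 occurred in more of the members than of the other tRNA genes by share. Since they came from these same peaks, many of which lie at tRNA genes, their occurrence in tRNA genes is no independent result. CGGCCA, read on either strand, occurred in 47 of 79 members (59.5%) and in 38 of 533 other tRNA genes (7.13%), and GGCCGA in 47 members (59.5%) and in 48 other tRNA genes (9.01%). The stretch tggccgag near the start of the 5 tRNA-Leu genes printed first and of C29F7.t2 holds both, on 1 strand or the other. It also stands near the start of ZK1010.t1 and VK10D6R.t1, which had no IDR summit. Of the 224 IDR summits with CGGCCA within 50 bp, 40 lay at members, 53 at other tRNA genes and 131 away from tRNA genes, out of 74, 439 and 1037 peaks of these kinds. At many tRNA genes a window of 50 bp around the summit takes in the start of the gene. The counts at members and other tRNA genes thus partly repeat those in the genes. CCACTA was found in 0 of 79 members, against 154 of the other tRNA genes (28.9%), and ACCACT in 57 members (72.2%), against 225 of them (42.2%). TAACCA occurred in 40 members (50.6%) and 92 of the other tRNA genes (17.3%).

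The members were spread over all 6 nuclear chromosomes, with 35 on X and 44 on the autosomes. An IDR summit was found at 31 of the 35 genes on X and at 40 of the 44 autosomal genes, and the median signals were 3466 on X and 2383 on the autosomes. In the replicates the medians were 591 on X and 425 on the autosomes in replicate 1, and 2997 on X and 1970 on the autosomes in replicate 3. In the other tRNA genes the IDR medians were 2689 on X and 2401 on the autosomes. Of the members, 36 lie inside a protein-coding gene, in its noncoding part, and 43 outside such genes. The median IDR signal was 2204 in the 34 of the first kind with a summit and 3339 in the 37 of the second, and their median start offsets were -22 and -27 bp. The 18 members with a summit that lie on the same strand as their host gene had a median signal of 2204, and the 16 on the opposite strand 2390.

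The listed genes of tRNA charging and of selenocysteine synthesis and use that were found in the annotation had no IDR summit. The list held the seryl-tRNA synthetases sars-1 and sars-2 and the leucyl-tRNA synthetases lars-1 and lars-2. It also held pstk-1, secs-1, seld-1 and selb-1 of selenocysteine synthesis and use, and trxr-1, a thioredoxin reductase that is a selenoprotein. Of the 9 names, 8 were found in the annotation, and 0 of these had an IDR summit in a window that began 500 bp before the start and ended 100 bp after it, against 1.84% of all protein-coding genes. With a background this low, 0 of 8 is near what the whole annotation shows. In the pooled list, sars-1 had a region at -126 bp with signal 39.1, under the lowest signal of an IDR peak.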

How the data were processed

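ChIP-seq peak lists of 2 samples, biological replicates 1 and 3 of 1 group, were used. The deposited descriptions state that the authors mapped reads to ce11, listed ranked regions per replicate and on both pooled against a control, and passed these to IDR; the aligner, the caller, the threshold and read depth are not given in the sources used here. The deposited signal of each region has no stated normalisation and was compared only within a list. The ce10 lists were left out.

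Positions count from 1 in ce11 (WBcel235), with genes from RefSeq (WormBase release 298). Members and lists were chosen with earlier results of these data known. A summit within 100 bp of a gene counted, the one nearest to the first base for offsets and the one of highest signal for signals. Anticodons were read by script from a stem of 5 pairs and a loop of 7 bases. The A box was searched as TRGYNNARNG or TRGYNNARNNG (R for A or G, Y for C or T) in the first 30 bases, on the strand of the gene. There was 1 group, so no test was run; spreads are over the 2 replicates. Placement was tested on simulated summits with known offsets, only at genes without a close tRNA neighbour, so shared summits and the summit spacing were not covered.

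Named were the 5 members of highest IDR signal of tRNA-Ser and of tRNA-Leu, the tRNA-Sec gene, all members without an IDR summit or with an intron, the 3 most upstream and 3 most downstream, and the highest of each anticodon. No sequence with an identical copy on chromosome I was printed. Y51H4A.t6, K02A4.t1, T22C8.t1, T14B4.t1 and Y73F8A.t4 were added after their values were seen. Alternatives covered the list, the distance, the peak threshold, the choice of summit, shared summits, repeated sequence and introns. Python 3.11.15, numpy 2.4.6, pandas 2.3.3 and matplotlib 3.10.9 were used.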

Additional observations from a re-analysis of the deposited data

How the results depend on the processing

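Over 13 alternatives for each of 8 results, the offsets, the difference at the last base and the ratio of signals kept their direction. The difference at the first base, 0 bp as reported, went both ways, from -0.5 bp (without introns, and without genes that have another tRNA gene within 250 bp) to 1 bp, so it has no direction. Each replicate's list on its own gave 73 to 75 members with a summit, median offsets of -26 to -24 bp from the first base, -109 to -107 bp from the last base and -89 to -87 bp from the B box, and differences from the other tRNA genes of 0 to 1 bp at the first base and -11 to -10 bp at the last. The median signal there was 493 to 2342 (493 to 2333 with the whole lists), which follows the scale of each list. The ratio to the other tRNA genes was 1.089 to 1.095, and 1.115 to 1.142 with the whole lists. With the pooled list the median signal was 2731, the ratio 1.105 and the difference at the first base 1 bp. Within 50 bp the medians were -106 bp (last base), -86 bp (B box) and 2658 (signal), the difference at the last base -10 bp and the ratio 1.046; within 200 bp that difference was -10 bp and the ratio 1.083. The 775 IDR peaks of highest signal gave a ratio of 1.076. With the other summit of a gene the signal was 2727, the differences 1 bp (first base) and -10 bp (last base) and the ratio 1.062. Without shared summits the signal was 2658 and the ratio 1.049. Taking only genes with a unique sequence of 31 bases left 19 members with a summit, medians of -22, -112 and -92 bp from the first base, the last base and the B box, a signal of 3075, a difference of -17 bp at the last base and a ratio of 1.351; 7 of these members have an intron. Without introns the medians were -106.5 bp (last base), -86.5 bp (B box) and 2767 (signal), and the ratio 1.076. Without genes that have another tRNA gene within 250 bp, added after the data were seen, the signal was 2580 and the ratio 1.006. The cause of these shifts was not tested beyond the makeup of each subset. No paired analysis was possible because there was 1 group and no comparison between groups. Depth is not given in the lists, and summits at least 199 bp apart limit what can be placed at neighbouring genes.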
